A study of Rattus norvegicus with 6 samples.

Results

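The transporters that carry di- and tripeptides and amino acids across the enterocyte were followed in rat jejunum. A set of 10 genes was chosen by name, and a probe was assigned to a gene when its RefSeq accession belonged to that gene. Of the 10 genes, 8 had a probe, 1 each, among the 41012 non-control probes of the array. Slc6a19 and Slc1a1, the main sodium-dependent neutral and acidic amino acid carriers of the brush border, were matched by no accession and were not analysed here. The 8 measured genes were Slc15a1, Slc3a1, Slc7a9, Slc36a1 and Slc1a5, taken here as apical, and Slc3a2, Slc7a7 and Slc7a8, which are basolateral.

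The arrays compared 2 groups of male Sprague-Dawley rats, a strain without engineered alleles, at 6 weeks of age and 200 ± 20 g. The control group was housed at 25 °C and 60% humidity. The S3d group was in addition kept at 35 °C on a shaking platform (0.1 g) during 2 h of each of 3 days. Each group had 3 one-colour Agilent arrays, and each array carried the pooled RNA of 3 rats, so p-values measure the spread between such pools. The question was which transporters differed between the 2 groups. The whole jejunal wall was extracted, and in such bulk samples fewer cells of a type and less RNA per cell cannot be told apart.

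Dietary protein reaches the enterocyte as short peptides and free amino acids. At the apical membrane, a proton gradient drives the peptide carrier, and sodium or the exchange of one amino acid for another drives most amino acid carriers. At the basolateral membrane, exchangers release amino acids to the blood. Several of these carriers are pairs of a catalytic light chain and a glycoprotein heavy chain that takes it to the membrane: Slc7a9 pairs with Slc3a1 on the apical side, and Slc7a7 and Slc7a8 pair with Slc3a2 on the basolateral side.

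The stretch of 250 bases before the start site listed by RefSeq (assembly GRCr8) is shown for the 3 light chains, because their probes differed between the groups in different directions, and for Slc36a1, whose probe differed most among the 8. Capitals mark the matches to 5 short motifs searched on both strands: the GC box GGGCGG, the E-box CACGTG, the core TCACGTGA of the CLEAR element of lysosomal genes, the CDX2 site TTTATG and the ATF4 element TTGCATCA. The stretches lie at chr10:39824785-39825034 on the plus strand for Slc36a1, chr1:97246632-97246881 on the plus strand for Slc7a9, chr15:31835684-31835933 on the minus strand for Slc7a7 and chr15:32212716-32212965 on the minus strand for Slc7a8. The start site lies at the edge of the gene record for Slc7a8, and inside it by 629 bases for Slc7a9, 5282 for Slc36a1 and 17049 for Slc7a7, so other start sites exist for these genes.
Slc36a1: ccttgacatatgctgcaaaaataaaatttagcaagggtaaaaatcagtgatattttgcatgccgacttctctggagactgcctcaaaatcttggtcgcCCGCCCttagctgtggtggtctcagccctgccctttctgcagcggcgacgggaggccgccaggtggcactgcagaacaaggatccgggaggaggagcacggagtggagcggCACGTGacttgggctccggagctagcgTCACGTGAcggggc
Slc7a9: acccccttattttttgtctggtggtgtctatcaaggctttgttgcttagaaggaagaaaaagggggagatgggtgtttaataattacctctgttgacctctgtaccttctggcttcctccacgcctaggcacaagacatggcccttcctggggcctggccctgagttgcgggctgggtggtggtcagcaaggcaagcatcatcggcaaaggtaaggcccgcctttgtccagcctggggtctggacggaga
Slc7a7: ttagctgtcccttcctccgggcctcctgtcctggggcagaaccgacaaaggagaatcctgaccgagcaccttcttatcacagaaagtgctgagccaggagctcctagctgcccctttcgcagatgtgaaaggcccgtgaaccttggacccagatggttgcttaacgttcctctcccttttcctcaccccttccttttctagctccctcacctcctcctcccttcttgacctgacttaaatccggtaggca
Slc7a8: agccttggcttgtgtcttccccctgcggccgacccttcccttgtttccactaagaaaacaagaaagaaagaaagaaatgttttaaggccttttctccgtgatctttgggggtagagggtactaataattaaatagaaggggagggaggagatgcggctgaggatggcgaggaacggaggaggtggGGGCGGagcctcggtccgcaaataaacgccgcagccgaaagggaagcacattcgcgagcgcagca

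The Slc36a1 stretch held a CLEAR core beginning 14 bases before the start, which contains an E-box, a separate E-box beginning 41 bases before it and a GC box on the opposite strand. A CLEAR core was present in 0.657% and an E-box in 5.59% of 33469 such stretches in the RefSeq table. The stretch of Slc7a8 held a GC box 65 bases before the start, a motif present in 30.5% of all stretches. None of the 5 motifs was found in those of Slc7a9 and Slc7a7. Among the 9 stretches that the table gives for 8 of the 10 transporters, 4 held a GC box and 1 the E-box and CLEAR core, while none held TTTATG or TTGCATCA, which were present in 11.4% and 0.693% of all stretches. The motifs were chosen after the sequences had been seen, and a match is a run of letters, not a shown site.

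Before the values, 3 properties of the arrays have to be given. First, the scanner files and the deposited normalized table carry opposite group labels: each column of the table matched, at a rank correlation of at least 0.99999, the scanner file of the same replicate in the opposite group, and correlated at 0.941 to 0.948 with the file of its own label. No sample was reassigned, every signed value below is S3d-labelled minus control-labelled arrays by the scanner files, and this direction opposes that of the study and of its normalized table. Next, the control-labelled arrays were on one slide scanned on one day and the S3d-labelled ones on another slide and day, so slide, scan and group cannot be told apart. Last, the S3d-labelled arrays were brighter, with a 75th percentile of the processed signal of 1456 to 1566 against 414.4 to 430.1, and 77.5% to 81.5% against 69.1% to 73.7% of the spots were well above background. Values are therefore given as log2 signal relative to the 75th percentile of the same array. On this scale 73.9% of the 31365 tested probes differed between the groups (limma, adjusted p under 0.05), 39.4% being higher and 34.5% lower on the S3d-labelled arrays, and the median fold change over the tested probes was 0.08 (log2).

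Of the 8 transporters, 7 differed between the groups and 7 had values that did not overlap between them, against 73.9% and 78.9% of all tested probes, so these counts are near the background. Among the 5 apical transporters, 4 were lower and 1 was higher on the S3d-labelled arrays (34.5% and 39.4% of all tested probes), with a median log2 fold change of -0.69. Among the 3 basolateral transporters, 2 were higher and Slc3a2 was not called, with a median of 0.74. All 8 probes were well above background on all 6 arrays and none was saturated.

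**Figure D1:**
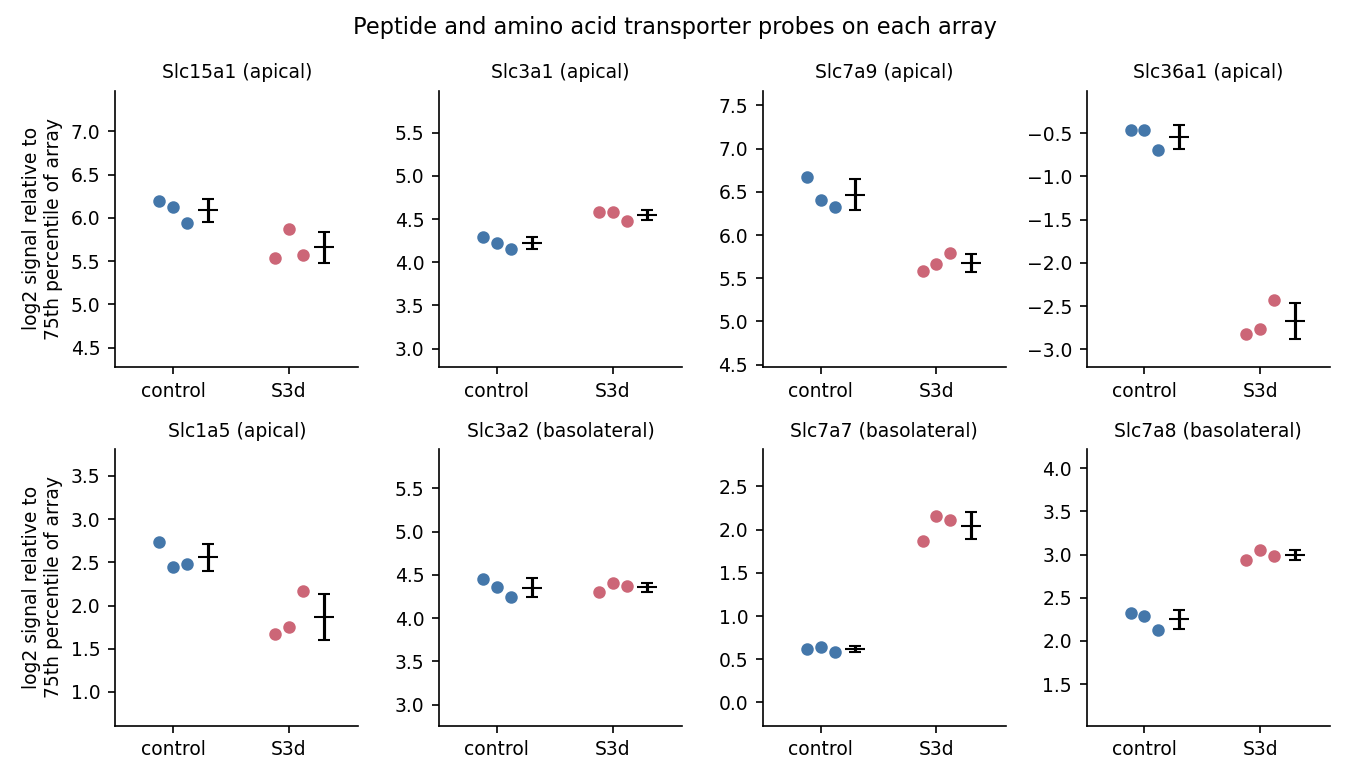
Log2 signal relative to the 75th percentile of each array for the 8 transporter probes on 3 arrays labelled control (blue) and 3 labelled S3d (red), with the mean ± SD in black beside each group and the same span of log2 units in every panel. The groups are apart for 7 probes, most widely for Slc36a1 (-2.13) and Slc7a7 (1.43), and overlap for Slc3a2.

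Slc15a1 encodes PepT1, the proton-coupled carrier of di- and tripeptides. Its log2 level was 6.20, 6.13 and 5.94 on the control-labelled arrays and 5.54, 5.87 and 5.57 on the S3d-labelled ones. The 3 S3d values all lay under the control values, with only a narrow gap between S3d array 2 and control array 3. The log2 fold change was -0.43 ± 0.12 (SE, n = 3 arrays per group, limma adjusted p = 0.0177), a 1.34-fold lower signal. The call was lost in 4 of the 6 fits that left out 1 array (without control 1, control 2, S3d 1 or S3d 3, with adjusted p of 0.0549, 0.0547, 0.0506 and 0.0575), and quantile normalization turned the fold change to 0.18 (adjusted p = 0.29). With each array centred on the mean level of the villus enterocyte markers described below, it was 0.34 (adjusted p = 0.0688).

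Slc3a1 and Slc7a9 encode rBAT and its light chain, which together take up cystine and dibasic amino acids in exchange for neutral ones and are the genes of cystinuria. The log2 level of Slc3a1 was 4.29, 4.22 and 4.15 on the control-labelled arrays and 4.58, 4.58 and 4.48 on the S3d-labelled ones. The heavy chain was thus higher on all 3 S3d arrays, by 0.32 ± 0.07 on the log2 scale (adjusted p = 0.00616), or 1.25-fold, although centring the arrays on their median left 0.14 (adjusted p = 0.125). The log2 level of Slc7a9 was 6.67, 6.40 and 6.33 on the control-labelled arrays and 5.58, 5.66 and 5.79 on the S3d-labelled ones. The light chain was lower on all 3 S3d arrays, by 1.73-fold, the log2 fold change being -0.79 ± 0.11 (adjusted p = 0.00106). This difference was -0.14 (adjusted p = 0.314) with quantile normalization and -0.02 (adjusted p = 0.907) with centring on the mean of the villus enterocyte markers.

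Slc36a1 encodes PAT1, a proton-coupled carrier of small neutral amino acids found in the brush border and in lysosomes, whose promoter stretch carried the CLEAR core above. Its log2 level was -0.46, -0.46 and -0.70 on the control-labelled arrays and -2.82, -2.76 and -2.43 on the S3d-labelled ones. No other transporter of the 8 had groups so far apart. The log2 fold change was -2.13 ± 0.13 (adjusted p = 3.84e-05), a 4.38-fold lower signal, against a median of 0.02 among tested probes of like brightness. It was the one transporter whose processed signal before any scaling was not raised on the brighter arrays: 301.3, 309.5 and 264.6 on the control-labelled ones and 206.0, 229.2 and 289.8 on the S3d-labelled ones. These unscaled values overlap, and without scaling the fold change was -0.28 (adjusted p = 0.099).

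Slc1a5 encodes ASCT2, a sodium-dependent exchanger of neutral amino acids including glutamine. Its log2 level was 2.74, 2.45 and 2.48 on the control-labelled arrays and 1.67, 1.76 and 2.16 on the S3d-labelled ones. All 3 S3d values were lower, and they were spread more widely than the control values. The log2 fold change was -0.69 ± 0.16 (adjusted p = 0.00756), a 1.61-fold lower signal. With centring on the mean of the villus enterocyte markers it was 0.07 (adjusted p = 0.739). Without Slc1a5, whose side of the membrane is less certain, 3 of 4 apical transporters were lower.

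Slc3a2 encodes 4F2hc (CD98), the heavy chain shared by the basolateral exchangers. Its log2 level was 4.45, 4.36 and 4.24 on the control-labelled arrays and 4.30, 4.40 and 4.37 on the S3d-labelled ones. The groups overlapped, and the log2 fold change was 0.01 (95% confidence interval -0.19 to 0.20, adjusted p = 0.955). Quantile normalization raised it to 0.42 (adjusted p = 0.00335) and centring on the mean of the villus enterocyte markers to 0.77 (adjusted p = 0.00105).

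Slc7a7 encodes y+LAT1, which releases dibasic amino acids in exchange for neutral ones and is the gene of lysinuric protein intolerance. Its log2 level was 0.62, 0.65 and 0.59 on the control-labelled arrays and 1.87, 2.16 and 2.11 on the S3d-labelled ones. The control arrays lay close together and all S3d arrays were above them, the log2 fold change being 1.43 ± 0.09 (adjusted p = 4.42e-05), a 2.69-fold higher signal. In the normalized table, under its own labels, the log2 values were 11.57, 11.89 and 11.85 for control and 10.26, 10.29 and 10.23 for S3d. The table thus gave the same separation with the sign turned, as it did in sign for each of the 8 transporters other than Slc15a1.

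Slc7a8 encodes LAT2, an exchanger of neutral amino acids. Its log2 level was 2.33, 2.29 and 2.13 on the control-labelled arrays and 2.94, 3.05 and 2.99 on the S3d-labelled ones. It was higher on all 3 S3d arrays, by 1.67-fold, the log2 fold change being 0.74 ± 0.08 (adjusted p = 0.000295). The basolateral light chains were therefore both higher, the apical light chain lower, on the S3d-labelled arrays.

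The light and heavy chains were next compared on the same array, since a difference between a pair of probes on an array is not altered by scaling that array by a constant. The size of such a difference depends on the probes, and only its shift between the groups is read. Slc7a9 minus Slc3a1 was 2.37, 2.18 and 2.17 on the control-labelled arrays and 1.00, 1.08 and 1.31 on the S3d-labelled ones, a shift of -1.11. The apical light chain thus lost ground to its heavy chain on every S3d array. Slc7a7 minus Slc3a2 was -3.84, -3.71 and -3.66 against -2.43, -2.25 and -2.26, a shift of 1.42. Slc7a8 minus Slc3a2 was -2.13, -2.07 and -2.11 against -1.36, -1.35 and -1.39, a shift of 0.74. Both basolateral light chains thus gained on Slc3a2 on every S3d array. A constant does not remove the dependence of fold changes on brightness described below. The median fold change was -0.49 in the brightness class of Slc3a2 and -0.12 in that of Slc7a7 and Slc7a8. The part of this in the shifts was not tested. Slc7a7 minus Slc7a8 is fixed by their differences from Slc3a2 and is not a separate result. It went from -1.63 ± 0.08 to -0.95 ± 0.10 (SD, n = 3), a shift of 0.69. The groups did not overlap in any of the 4 pairs. Among single tested probes 78.9% did not overlap either, and pairs of other probes were not examined. The two-sided exact permutation test gave p = 0.1 for each of the 4 pairs (adjusted over them, 0.1), the smallest value that 3 arrays against 3 allow. The shifts kept their sign in quantile-normalized and in normexp-corrected values and were turned in the normalized table with its exchanged labels.

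**Figure D2:**
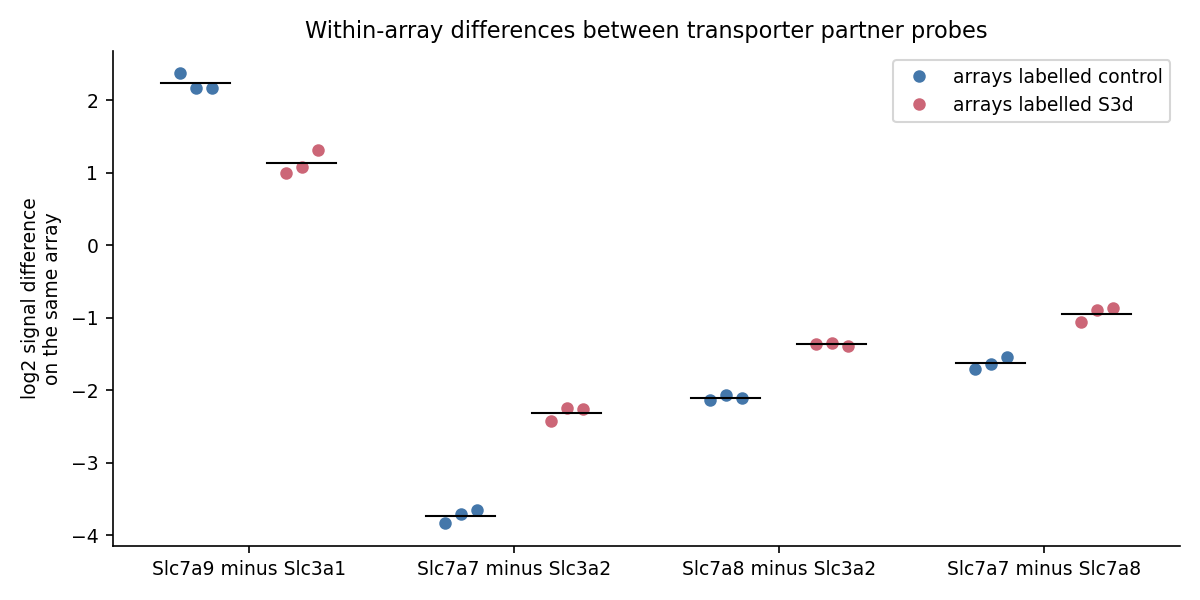
Difference in log2 signal between the probes of partner chains on the same array, for 3 arrays labelled control (blue) and 3 labelled S3d (red), with lines at the group means. The groups do not overlap in any pair, and the mean of Slc7a9 minus Slc3a1 goes from 2.24 to 1.13 while that of Slc7a7 minus Slc3a2 goes from -3.74 to -2.31.

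Fold changes depended on brightness across the whole array, and most of the transporters are bright. By percentile of brightness among the tested probes, the median log2 fold change was 0.68 up to the 25th, 0.16 from there to the 50th, 0.02 from there to the 75th, -0.12 from there to the 90th and -0.49 above the 90th, where 81.0% of probes differed and 65.1% were lower. Slc15a1, Slc7a9, Slc3a1 and Slc3a2 lay in this brightest class. The -0.43 of Slc15a1 is near its median, the -0.79 of Slc7a9 is below it, and Slc3a1 (0.32) and Slc3a2 (0.01) are above it. Slc7a7 (1.43), Slc7a8 (0.74) and Slc1a5 (-0.69) lay between the 75th and the 90th percentile.

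**Figure D3:**
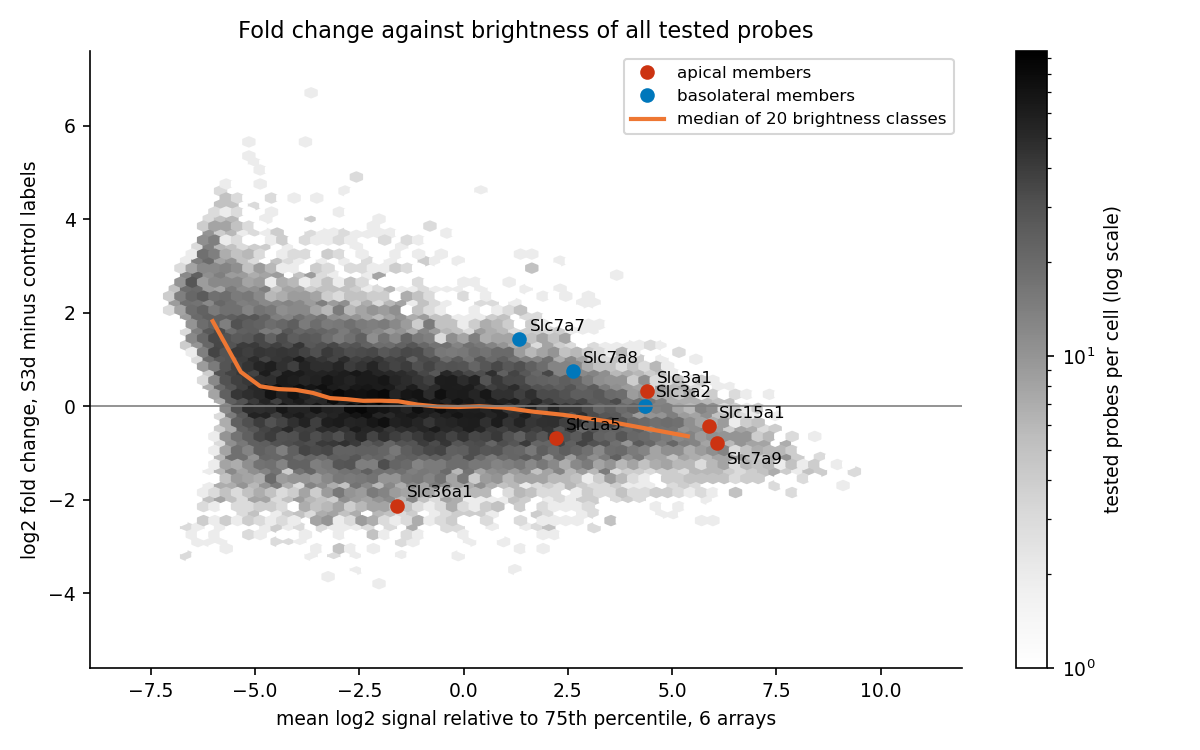
Log2 fold change, S3d-labelled minus control-labelled arrays, against mean log2 signal relative to the 75th percentile over 6 arrays, for all 31365 tested probes (grey, number per cell on a log scale), with the apical (red) and basolateral (blue) transporters and the running median (orange). The median falls to -0.49 above the 90th percentile, which holds Slc15a1, Slc7a9, Slc3a1 and Slc3a2, and Slc36a1 lies far under the median at its brightness.

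Quantile normalization, which gives all arrays the same distribution of values, called 6 of the 8 transporters against 70.6% of all tested probes. Slc15a1 and Slc7a9 were the genes not called, and Slc3a1, Slc3a2, Slc7a7 and Slc7a8 were all higher on the S3d-labelled arrays. Normexp background correction, which started from the median spot signals in place of the processed signal and gave larger standard errors, called 2 of the 8 transporters against 5.59% of all tested probes. These were Slc36a1 (-2.03, adjusted p = 0.0175) and Slc7a7 (1.63, adjusted p = 0.0231). Signals without scaling between arrays shifted all tested probes by a median of 1.93. Relative to that median, the fold change was -2.21 for Slc36a1, -0.87 for Slc7a9, -0.77 for Slc1a5 and -0.51 for Slc15a1. It was -0.08 for Slc3a2, 0.24 for Slc3a1, 0.66 for Slc7a8 and 1.35 for Slc7a7. These equal the values on the 75th percentile scale by construction, because the scalings differ by a constant per array. Relative to the normexp median of -0.68, they were 0.91 for Slc15a1, 0.39 for Slc7a9, 0.53 for Slc1a5 and -1.35 for Slc36a1. Slc3a1 was 1.64, Slc3a2 1.26, Slc7a8 1.93 and Slc7a7 2.32 above that median. The difference between the apical and the basolateral median was -1.43 with the 75th percentile, -1.10 with quantile normalization, -1.40 with normexp and 1.06 in the normalized table under its own labels.

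**Figure D4:**
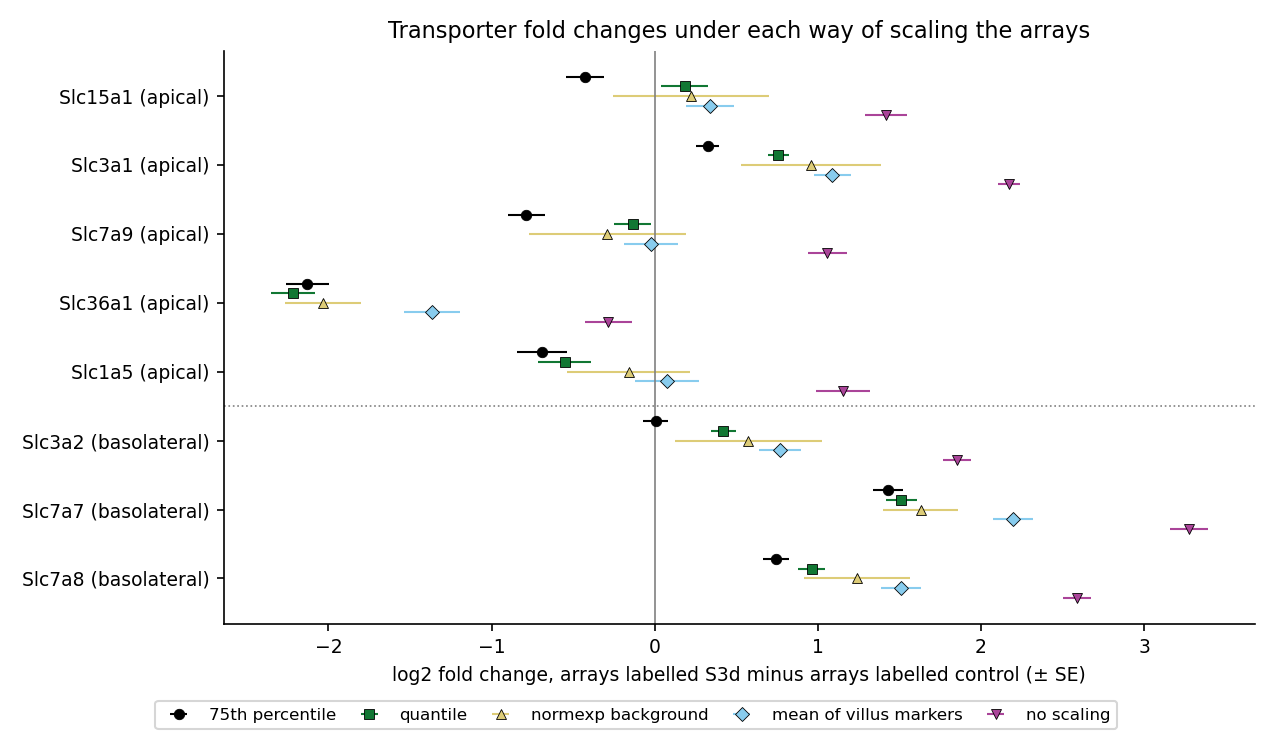
Log2 fold change ± SE of each transporter, S3d-labelled minus control-labelled arrays, under 4 ways of scaling the arrays and 1 other background correction, apical genes above the dotted line. Slc36a1 stays below 0 and Slc3a1, Slc7a7 and Slc7a8 above 0 in all 5, whereas Slc3a2 ranges from 0.01 to 1.85 and Slc15a1 from -0.43 to 1.42. Spike-in scaling (0.21 for Slc36a1) and the normalized table under its own labels (2.23 for Slc36a1) are not drawn.

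Cltrn encodes collectrin, known mainly from the kidney, where it carries Slc6a19 and related transporters to the membrane. Its log2 level went from -4.44 ± 0.12 to -3.47 ± 0.08 (SD, n = 3), a fold change of 0.97 (adjusted p = 0.000152). Slc6a19 itself had no matched probe beside this value. Of the list of transporter partners and ion gradients, which holds Cltrn, 3 of 7 tested genes were higher and 3 lower on the S3d-labelled arrays, with a median of -0.16. With quantile normalization 5 were higher and 1 lower, with a median of 0.63.

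Of 24 further amino acid and peptide transporters, 16 were tested, of which 6 were higher and 5 lower on the S3d-labelled arrays, with a median of 0.08, against 0.08 for all tested probes. With quantile normalization 4 were higher and 8 lower, with a median of -0.17. Each gene was read on its brightest tested probe, and other probes of these genes are not given. Among the called genes that were well above background on all 6 arrays and held their sign under 75th percentile, median and quantile scaling, the 3 largest rises were in Slc43a2 (0.83 ± 0.07, adjusted p = 0.000141), Slc7a5 (0.64 ± 0.13, adjusted p = 0.00558) and Slc6a14 (0.46 ± 0.15, adjusted p = 0.0291). Slc43a2 encodes LAT4, a basolateral facilitator of neutral amino acids, and Slc7a5 encodes LAT1, a further light chain of Slc3a2. The 3 largest falls by the same rule were in Slc15a4 (-0.74 ± 0.07, adjusted p = 0.000205), a lysosomal peptide and histidine carrier, Slc38a1 (-0.59 ± 0.12, adjusted p = 0.0056), a glutamine carrier, and Slc6a6 (-0.54 ± 0.07, adjusted p = 0.000577), the taurine carrier.

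Of the transcription factors known to act on intestinal transporter genes, such as Cdx2 and Hnf4a, 1 of 8 was higher and 5 were lower, with a median of -0.31. With quantile normalization 1 was higher and 3 were lower. Of the genes of the ATF4-driven response to amino acid shortage, to which Slc7a5 and Slc3a2 belong in other cells, 5 of 11 were lower and the other 6 were not called, with a median of -0.70. Under the labels of the normalized table, 5 of these 11 were higher, with a median of 0.47.

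The villus enterocyte markers, among them Vil1, Lct and Fabp2, were well above background on all 6 arrays for all 13 that had a probe out of 14, as a sample of small intestinal mucosa has. They do not tell jejunum from other segments. Of these 13 genes, 10 were lower and 1 was higher on the S3d-labelled arrays, with a median of -0.96. Their summed level was 12.06 to 12.20 on the control-labelled arrays and 10.90 to 10.94 on the S3d-labelled ones (log2 of the sum of scaled signals). All but Lct lay above the 90th percentile of brightness, where 65.1% of all tested probes were lower, with a median of -0.49. The part of the villus markers in the differences of the apical transporters was not tested. The count of villus markers turned with the scaling: with quantile normalization 2 of the 13 were lower and 5 higher, with a median of 0.03. The mean log2 level of the 13 markers moved by -0.77 between the groups. With each array centred on that mean, Slc36a1 (-1.36, adjusted p = 0.000237) was still lower, Slc3a1 (1.09), Slc7a7 (2.19) and Slc7a8 (1.51) were higher, and Slc7a9 (-0.02), Slc15a1 (0.34) and Slc1a5 (0.07) were not called.

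Markers of other cells, each read on the brightest tested probe of its gene, also differed. Goblet and Paneth cell markers were lower for 4 of 5 tested genes (summed level 9.86 to 9.90 on the control-labelled arrays, 8.22 to 8.32 on the S3d-labelled ones), and leukocyte markers for 6 of 6 (4.31 to 4.75 against 3.94 to 4.16). Of 6 crypt and proliferation markers, 4 were higher and 2 lower (5.47 to 5.60 against 5.64 to 5.67). Smooth muscle markers were higher for 2 and lower for 2 of 6 (6.93 to 7.20 against 6.84 to 7.07), and so were enteroendocrine markers (6.50 to 6.66 against 5.89 to 6.05). With quantile normalization, 3 goblet and Paneth cell markers were lower and 1 was higher, and 5 leukocyte markers were lower. Smooth muscle and enteroendocrine markers were each higher for 3 genes and lower for 2. Of the crypt and proliferation markers 3 were higher and 1 lower. Under the labels of the normalized table, 3 goblet and Paneth cell markers were higher and 1 lower, and 5 leukocyte markers were higher. There, 1 crypt and proliferation marker was higher and 3 were lower. Smooth muscle and enteroendocrine markers were each higher for 2 genes and lower for 3. All tested marker genes of these lists were well above background on all 6 arrays, and their part in the values of the transporters was not tested.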

How the data were processed

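Jejunal RNA was measured on 6 one-colour Agilent arrays, 3 per group. The labels give 10 rats per group and 3 rats pooled per sample, and the number in the paper differs. The authors deposited scanner output from Agilent Feature Extraction 10.7.3.1, whose intensity values had been corrected for background but not scaled between arrays. A further table that the authors deposited holds log2 values with nearly the same sorted values in each column, as quantile normalization gives. Its program was not given in the sources used here.

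The main value was the log2 processed signal minus the array's 75th percentile, without control and outlier spots. A probe was tested if either group had it well above background on its 3 arrays, and 9645 of 41012 probes were not. Of those tested, 3576 passed only through the S3d labels and 739 only through the control labels. The comparison used limma 3.58.1 (R 4.3.3) without a block, with Benjamini-Hochberg adjustment over all tested probes, and called at an adjusted p under 0.05. The fit was tested on simulated data. Partner differences used the exact permutation test in SciPy 1.17.1. The number of arrays limits the precision.

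Accessions were named through the RefSeq table of GRCr8, which gave 17512 probes 1 gene and left 23500 unnamed. The files of the 2 slides carry annotations of different dates, in which 1819 spots differ in accession, and both give the same 8 transporter probes. No probe sequence was used. In the lists beside the transporters, each gene was read on its brightest tested probe, and its other probes are not given. Named are all 10 transporters, the 3 largest rises and 3 largest falls among related transporters that were called, well above background on all arrays and of one sign under 3 scalings, and Cltrn. One further gene that the rule names is not reported here. Transporters and lists were chosen with earlier results of these data known.

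The alternatives were, for the scaling, quantile normalization, centring on the median or on villus enterocyte markers and none at all, and in addition normexp with an offset of 50 on median signals (a mean signal column was not used), the filter on dim probes, outlier spots kept, the normalized table, an intensity trend, a block for the replicate number, the analysis of variance of the methods, a fold change of at least 1.5 and leaving out each array. Scaling by the E1A spike-in probes and centring on the mean of the villus markers in place of their median were added after seeing the data. Replicate numbers did not pair the arrays: correlations of the deviations were 0.02, 0.02 and -0.05 for arrays of the same number.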

Additional observations from a re-analysis of the deposited data

How the results depend on the processing

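With normexp, which also changed the signal column used, the probes called went from 23185 to 1754 and the transporters called from 7 to 2. Asking also for a fold change of at least 1.5 left 16448 probes, and neither count moved by more than 1.5 times under any alternative run other than normexp. The share of called probes that were higher was 53.3%, and 65.3% with centring on the median and 86.5% on the mean of the villus markers, 98.1% without scaling, 99.4% with spike-in scaling and 31.1% with normexp. The median of all tested probes moved to 1.93 without scaling, 2.43 with spike-in scaling, 0.28 and 0.85 with centring on the median and the mean of the villus markers, -0.10 with median centring and -0.68 with normexp. Apical transporters called lower (4) became 2 with quantile normalization or centring on the median of the villus markers, which itself moved by only -0.20, 1 with centring on their mean, normexp or the normalized table and 0 without scaling or with spike-in scaling. Those called higher (1) became 0 with median centring, normexp or a fold change of at least 1.5, 2 in the normalized table and 4 without scaling or with spike-in scaling. Basolateral transporters called higher (2) became 1 with normexp and 0 in the normalized table, where 3 were lower.

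The sign of the log2 fold change turned for Slc15a1 with quantile normalization (0.18), normexp (0.22), no scaling (1.42), spike-in scaling (1.92) and centring on the villus mean (0.34), for Slc7a9 without scaling (1.06) and with spike-in scaling (1.56), for Slc1a5 likewise (1.16 and 1.65) and with centring on the villus mean (0.074), for Slc36a1 with spike-in scaling (0.21) and for Slc3a2 with median centring (-0.18) and among the fits that left out 1 array (-0.049 to 0.056). Under the labels of the normalized table the values were -0.73 for Slc3a1, 0.10 for Slc7a9, 2.23 for Slc36a1, 0.54 for Slc1a5, -0.40 for Slc3a2, -1.51 for Slc7a7 and -0.95 for Slc7a8. Beside the exchanged labels, the cause was not tested.

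Within arrays, quantile normalization, normexp and the normalized table gave shifts of -0.89, -1.25 and 0.83 for Slc7a9 minus Slc3a1, 1.09, 1.06 and -1.12 for Slc7a7 minus Slc3a2, 0.54, 0.67 and -0.55 for Slc7a8 minus Slc3a2, and 0.55, 0.39 and -0.56 for Slc7a7 minus Slc7a8. With the replicate number as a block, 22212 probes and the same count of 7 transporters were called, and the block changed no call of a transporter. The analysis of variance of the methods called 21729 probes and 7 transporters after adjustment, and 13966 probes and 4 transporters at the study's own threshold. A mean over all probes of a gene changed nothing, since each transporter had 1 probe. All 8 probes were above background. Their limits are the 3 arrays per group, the slides, the exchanged labels, 1 probe per gene and the dependence on scaling and brightness.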
